A study of Mus musculus with 7 samples.

Results

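The IL-1 family genes of wound macrophages were followed here between d7 and d3 after injury. The set holds 10 genes fixed by name: the cytokines Il1a, Il1b and Il18, the soluble inhibitors Il1rn and Il18bp, and the receptor genes Il1r1, Il1r2, Il1rap, Il1rl1 and Il1rl2. A gene was represented by the probe set that carries its symbol alone, and 9 of the 10 had such a probe set, among 30176 genes named in this way and 65956 probe sets tested. Il1rl1, which encodes the IL-33 receptor ST2, has no probe set of its own symbol in the annotation used and so has no value here.

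The cells came from polyvinyl alcohol sponges placed under the skin of the back of C57BL/6 mice. Cells positive for CD11b were sorted for F4/80, and each sample of their RNA was read on its own Affymetrix Mouse Transcriptome Array. The d7 group has 4 arrays (replicates 5, 6, 7 and 8) and the d3 group has 3 (replicates 1, 3 and 4). The labels give no treatment or mutation for either group beyond the implanted sponge, and unwounded tissue was not analysed here. The labels do not say whether a sample is 1 animal or a pool. The study's methods give mice of 8 to 10 weeks and both sexes for its experiments, not for each array.

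IL-1α and IL-1β bind a receptor made of IL1R1 and its accessory protein IL1RAP, and signal through MYD88 and the IRAK kinases to NF-kB. The receptor antagonist encoded by Il1rn occupies IL1R1 without signalling, and the decoy receptor IL1R2 binds IL-1 without a signalling domain. IL-1β and IL-18 are made as precursors that caspase-1 cleaves in inflammasomes, so mRNA levels alone do not give the amount of active cytokine. IL-18BP binds and blocks IL-18. Macrophages and neutrophils are known sources of IL-1β in early wounds.

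The array background was taken as 5.39, the highest value of any antigenomic probe on any array, and all levels are on the log2 scale as deposited. Array medians ran from 4.14 to 4.17 on d7 and from 4.14 to 4.22 on d3. All 12 macrophage and monocyte genes listed lay above the background. Among them are Adgre1 and Itgam, the genes of the sort markers F4/80 and CD11b, so their levels are no separate check of the label. A level above the background does not single out macrophages, since 13 of 22 neutrophil markers also lay above it. Adgre1, which encodes F4/80, averaged 16.85 ± 0.02 on d7 and 16.84 ± 0.02 on d3 (SD, n = 4 and 3). All 13 fibroblast markers and all 12 keratinocyte markers measured lay at the background on both days. Identical values recur across arrays, and 3754 probe sets are constant over all 7. The cause of these ties was not tested. Ties are named below where a member carries them.

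Of the 9 measured members, Il18 fell on d7 and none rose at an adjusted p under 0.05 (limma on all probe sets, Benjamini-Hochberg adjustment). Over all probe sets 0.117% passed this test in either direction, 0.0637% as higher and 0.0531% as lower on d7. Among probe sets above the background, where 8 of the 9 members lay, 0.376% passed in either direction. On d7 the mean was lower for 6 members, higher for 2 and equal for Il1r1, with a median log2 difference of -0.030 over the 9, beside -0.00092 over all probe sets.

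**Figure D1:**
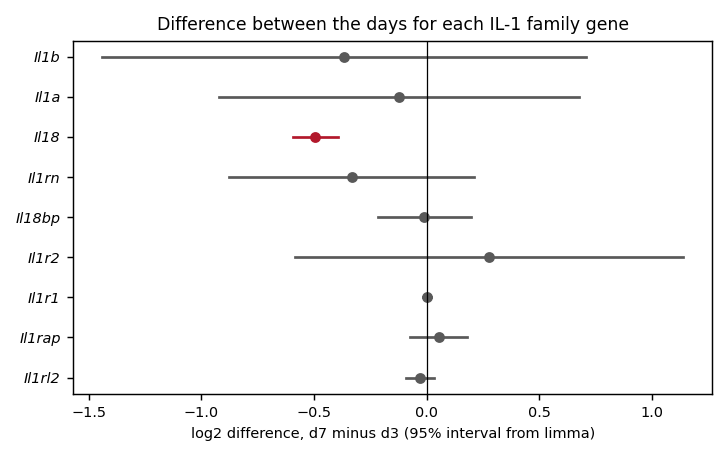
Log2 difference d7 minus d3 for each of the 9 measured IL-1 family genes (points) with its 95% interval from limma (lines), 4 d7 and 3 d3 arrays. Red marks the gene that passed the test, Il18 at -0.49, and the intervals of all other genes include 0.

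The promoters of 3 cytokine genes are shown because Il18 was the member that differed between the days, while Il1b and Il1a were both highest on the same d7 array. The receptor gene Il1r2 was also highest on that array, and its window is not shown. Each run gives the 250 bases before 1 RefSeq start of the gene in GRCm38.p6, 5′ to 3′ on the strand of the gene. That start is chr2:129371139 for Il1b, chr2:129309972 for Il1a, chr9:50554700 for Il18 and chr1:40086093 for Il1r2. For Il1b, Il1a and Il1r2 it lies inside the gene span given further below, so the window overlaps that span. Il1b lies on the minus strand of chromosome 2, with this window at chr2:129371140-129371389, and Il1a lies on the same strand at chr2:129309973-129310222. Il18 lies on the plus strand of chromosome 9, at chr9:50554450-50554699. Capitals mark matches to the TATA box TATAAA or its reverse complement and to the AP-1 motif TGANTCA.
Il1b: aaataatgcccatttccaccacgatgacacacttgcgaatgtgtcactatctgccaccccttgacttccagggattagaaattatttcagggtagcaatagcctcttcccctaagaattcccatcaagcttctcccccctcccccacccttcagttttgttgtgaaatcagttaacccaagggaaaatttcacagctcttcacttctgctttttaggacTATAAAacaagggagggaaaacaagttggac
Il1a: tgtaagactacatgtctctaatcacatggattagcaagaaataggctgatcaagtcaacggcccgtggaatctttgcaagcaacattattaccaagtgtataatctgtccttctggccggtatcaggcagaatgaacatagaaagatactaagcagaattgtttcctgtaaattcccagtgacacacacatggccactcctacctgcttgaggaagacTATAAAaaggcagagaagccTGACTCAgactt
Il18: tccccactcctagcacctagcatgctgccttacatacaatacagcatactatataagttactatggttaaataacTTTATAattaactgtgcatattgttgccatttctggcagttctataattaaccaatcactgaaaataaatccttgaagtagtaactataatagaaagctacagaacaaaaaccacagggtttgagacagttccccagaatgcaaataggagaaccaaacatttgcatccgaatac
The search covered the TATA box TATAAA, AP-1 as TGANTCA, the interferon-gamma-activated site TTCNNNGAA and the NF-kB consensus by name, on both strands, and no matches overlap in these windows. Counted from the start, with -1 as the base before it, TATAAA lay at -31 to -26 in Il1b and at -32 to -27 in Il1a, on the strand of each gene. Among all 32851 RefSeq promoter windows, 1.75% had TATAAA on the gene strand beginning 35 to 25 bases before the start, and 12.4% had it anywhere on either strand. The match in Il18 lies on the other strand, at -175 to -170. AP-1 matched in Il1a, at -12 to -6, and was found in 6.75% of all windows. The NF-kB consensus matched in none of these 3 windows and in 7.25% of all windows, which says only that those letters are not in the 250 bases searched. In the window of Il1r2 the only match was to the interferon-gamma-activated site, at -111 to -103, found in 7.02% of all windows.

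Il18, on chromosome 9 (GRCm38.p6, chr9:50554700-50581841), encodes the cytokine that drives interferon-gamma production by lymphocytes. Its level was 8.65, 8.61, 8.72 and 8.71 on d7 replicates 5, 6, 7 and 8, and 9.24, 9.12 and 9.14 on d3 replicates 1, 3 and 4. Every d7 array lay below every d3 array, and all 7 values were different. Over all probe sets 3.38% separated the days in this way with d7 lower. The mean was 8.67 ± 0.05 on d7 and 9.17 ± 0.06 on d3 (SD, n = 4 and 3), a log2 difference of -0.49 with a 95% interval from -0.60 to -0.39 and an adjusted p of 0.0344 from limma. This is a level 1.41-fold higher on d3. The exact permutation test of the 7 arrays gave p = 0.0286 (two-sided), the smallest that 35 arrangements allow. Markers of inflammatory monocytes were also lower on d7 in these arrays without passing the test. Ly6c2 had 15.76 ± 0.30 on d7 and 17.78 ± 0.37 on d3 (adjusted p = 0.0865 from limma), and Ccr2 had 12.70 ± 0.21 on d7 and 13.78 ± 0.12 on d3 (adjusted p = 0.0852). Their part in the level of Il18 was not tested. In sorted bulk cells, fewer cells that express a gene and less RNA per cell cannot be told apart. Leaving out 1 array at a time kept the difference between -0.52 and -0.46, but the call held only without d3 replicate 1 (adjusted p = 0.0431). Without d3 replicate 3 or 4 the adjusted p was 0.089 and 0.102, and without d7 replicate 5, 6, 7 or 8 it was 0.139, 0.129, 0.149 and 0.153.

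Il1b, the main IL-1 cytokine of activated macrophages (GRCm38.p6, chr2:129364569-129371164), differed more among arrays of 1 day than between the days. Its level was 11.27 on d7 replicate 5, 12.43 on replicate 6, 11.18 on replicate 7 and 10.74 on replicate 8. On d3 it was 12.16, 11.69 and 11.45 on replicates 1, 3 and 4. The d7 arrays held both the highest and the lowest of the 7 values, so the groups overlapped fully. The mean was 11.40 ± 0.72 on d7 and 11.77 ± 0.36 on d3, with a log2 difference of -0.37 (95% interval from -1.44 to 0.71, adjusted p = 0.738 from limma). The interval spans both a fall and a rise, so neither could be shown with these arrays. Without d7 replicate 6 the difference was -0.71 (adjusted p = 0.702), and without d7 replicate 8 it was -0.14 (adjusted p = 0.929).

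Il1a, which encodes the IL-1 cytokine that is active without cleavage by caspase-1 (chr2:129299609-129310186), followed the same array. It had 8.03, 8.87, 7.71 and 8.08 on d7 replicates 5, 6, 7 and 8, and 8.08, 8.73 and 8.08 on d3 replicates 1, 3 and 4. D7 replicate 6 was again the highest of the 7 arrays, and d7 replicate 8 shares its value with d3 replicates 1 and 4. The means were 8.17 ± 0.49 on d7 and 8.30 ± 0.38 on d3 (log2 difference -0.12, 95% interval from -0.92 to 0.68, adjusted p = 0.907 from limma). The sign turned without d3 replicate 3 (0.094) and without d7 replicate 7 (0.031).

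**Figure D2:**
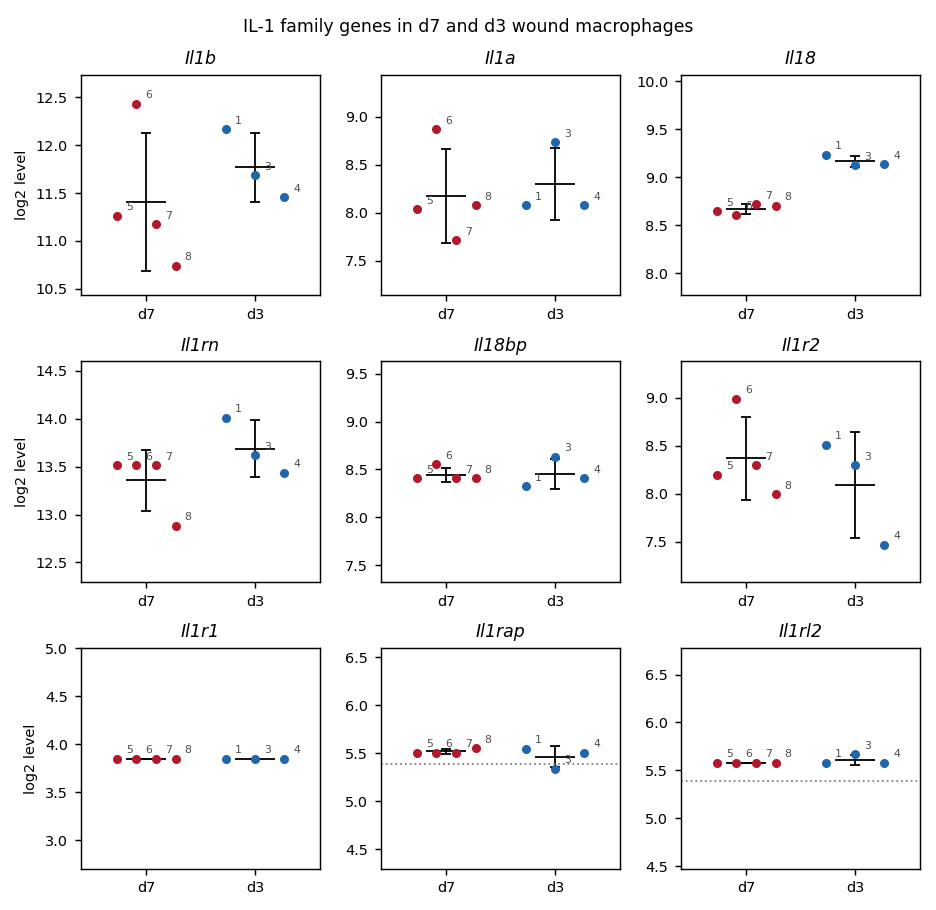
Log2 level of each of the 9 measured genes on the 4 d7 arrays (red) and the 3 d3 arrays (blue), with the replicate number beside each point and the mean ± SD in black. All axes span the same log2 range, the dotted line is the array background of 5.39 where it falls in range, and Il18 is the gene whose d7 and d3 points do not overlap.

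Of the inhibitors, Il1rn, the gene of the IL-1 receptor antagonist (chr2:24336860-24351491), stood well above the background on both days. Its level was 13.51 on d7 replicates 5, 6 and 7, which share 1 value, and 12.88 on d7 replicate 8. On d3 it was 14.01, 13.62 and 13.44 on replicates 1, 3 and 4. D7 replicate 8 was the lowest and d3 replicate 1 the highest, while d3 replicate 4 lay below 3 of the d7 arrays. The mean was 13.36 ± 0.31 on d7 and 13.69 ± 0.29 on d3, and the log2 difference of -0.33 did not pass (95% interval from -0.88 to 0.21, adjusted p = 0.662 from limma). Without d7 replicate 8 the difference was -0.18, and it was negative with each array left out.

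Il18bp, whose product neutralizes IL-18 (chr7:102015074-102018232), moved little. It had 8.56 on d7 replicate 6 and 8.41 on the other 3 d7 arrays, against 8.32, 8.63 and 8.41 on d3 replicates 1, 3 and 4. The value 8.41 is shared by d7 replicates 5, 7 and 8 and d3 replicate 4. The means were 8.44 ± 0.07 on d7 and 8.45 ± 0.16 on d3, with a log2 difference of -0.0097 (95% interval from -0.22 to 0.20, adjusted p = 1 from limma). The sign turned in several alternatives, with values up to 0.079 without d3 replicate 3.

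Il1r2, the decoy receptor gene (chr1:40084692-40125230), was the receptor gene with the clearest signal. It had 8.20, 8.99, 8.30 and 8.00 on d7 replicates 5, 6, 7 and 8, and 8.51, 8.30 and 7.47 on d3 replicates 1, 3 and 4. As for Il1b and Il1a, d7 replicate 6 was the highest array, and the lowest was d3 replicate 4. The means were 8.37 ± 0.43 on d7 and 8.09 ± 0.55 on d3 (log2 difference 0.28, 95% interval from -0.58 to 1.14, adjusted p = 0.748 from limma). The sign turned without d3 replicate 4, at -0.035.

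The signalling receptors were at or near the background. Il1r1, the receptor through which IL-1 signals (chr1:40222480-40316201), was listed at 3.85 on all 7 arrays, below the background. Il1rap, the shared accessory chain (chr16:26581509-26730128), had 5.51 on d7 replicates 5, 6 and 7 and 5.55 on d7 replicate 8, against 5.55, 5.34 and 5.51 on d3 replicates 1, 3 and 4. Il1rl2, the receptor of the IL-36 cytokines (chr1:40324589-40367555), had 5.58 on 6 arrays and 5.67 on d3 replicate 3. The last 2 lay within 0.3 of the background of 5.39 on every array, and neither passed (log2 differences 0.053 and -0.030, adjusted p = 0.697 and 0.662 from limma). A level at the background is not detectable here, which is not the same as absent.

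Whether a ligand and its inhibitor changed unequally was tested on the difference of their log2 values within each array, by exact permutation of the 7 arrays (two-sided, 35 arrangements, adjusted over 4 pairs). Such a difference has no meaning as a level, since 2 probe sets are not on a common scale. Il18 minus Il18bp was 0.24, 0.05, 0.31 and 0.30 on d7 replicates 5, 6, 7 and 8, and 0.91, 0.49 and 0.73 on d3 replicates 1, 3 and 4. The d7 arrays all lay below the d3 arrays, with a change of -0.49 (exact p = 0.0286, the smallest possible, adjusted p = 0.114). Il18bp itself differed by -0.0097, so this pair largely repeats the difference of Il18 and adds no separate evidence.

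Il1b minus Il1r2 was 3.07, 3.44, 2.88 and 2.75 on d7 replicates 5, 6, 7 and 8, and 3.65, 3.39 and 3.99 on d3 replicates 1, 3 and 4. D7 replicate 6 overlapped d3 replicate 3, and the change of -0.64 had an exact p of 0.0857 (adjusted p = 0.171). Il1b minus Il1rn had a change of -0.032 (exact p = 1), with -1.08 on d7 replicate 6 and from -2.33 to -2.14 on the other d7 arrays, against -1.98 to -1.85 on d3. Il1a minus Il1rn had a change of 0.21 (exact p = 0.571). None of the 4 pairs passed after adjustment. With 7 arrays 1 pair alone could not pass, since the smallest exact p of 0.0286 becomes 0.114 over 4 pairs. The lack of a pass therefore says little about these pairs.

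**Figure D3:**
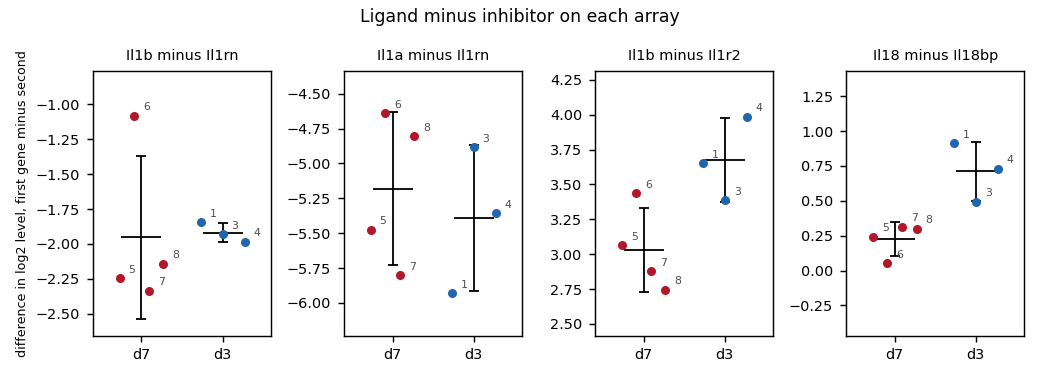
Log2 value of a ligand minus that of its inhibitor on each d7 array (red) and d3 array (blue), with replicate numbers and mean ± SD in black. The axes span equal ranges, and the d7 and d3 points separate for Il18 minus Il18bp only, where d7 reaches 0.31 and d3 begins at 0.49.

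Among the other ligands and receptors of the family, 10 of 11 lay at the background on both days and none of the 11 passed in limma, where 0 reached p under 0.05 before adjustment. Both chains of the IL-18 receptor were among them, with Il18r1 averaging 4.15 on d7 and 4.17 on d3, and Il18rap at 4.83 on all arrays. Il33, the ligand of ST2, averaged 3.73 on d7 and 3.70 on d3. Il36g, an IL-36 cytokine known chiefly from epithelia and listed by the array under its older symbol Il1f9, was the 1 gene above the background. It had 9.09, 9.41, 9.21 and 8.29 on d7 replicates 5, 6, 7 and 8, and 9.88, 9.66 and 8.65 on d3 replicates 1, 3 and 4. The groups overlapped (log2 difference -0.40, adjusted p = 0.711 from limma), and d7 replicate 8 was the lowest, as it was for Il1b and Il1rn.

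Of the genes that process and release IL-1β and IL-18, all 14 measured lay above the background and none passed in limma. Before adjustment 1 was higher and 3 were lower at p under 0.05, where 3.32% of all probe sets were higher, 4.34% lower and 7.66% either. Nlrp1b, an inflammasome sensor, had 8.69 ± 0.11 on d7 and 8.15 ± 0.31 on d3 (adjusted p = 0.575). Casp4, which senses intracellular lipopolysaccharide, had 10.72 ± 0.10 on d7 and 10.94 ± 0.12 on d3 (adjusted p = 0.647). Casp1, the protease that cleaves both cytokines, had 15.14 on d7 and 15.04 on d3 (adjusted p = 0.86). The median difference of the list was -0.053.

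Of 16 signalling genes measured, none passed in limma, and before adjustment 2 were higher and 5 lower at p under 0.05 (3.32% and 4.34% of all probe sets). Irak3, which encodes the kinase-deficient inhibitor IRAK-M, had the smallest p. It had 11.25, 11.57, 11.67 and 11.24 on d7 replicates 5, 6, 7 and 8, and 12.62, 12.33 and 12.43 on d3 replicates 1, 3 and 4, so that all d7 arrays lay below all d3 arrays. The log2 difference was -1.03 (adjusted p = 0.116 from limma). Myd88, the adaptor of the pathway, had 12.29 ± 0.12 on d7 and 12.75 ± 0.26 on d3 (adjusted p = 0.598). Toll-like receptors use the same adaptor and kinases.

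Of 23 genes that IL-1 is known to induce, 14 lay above the background and none passed in limma, and before adjustment 1 was higher and 6 were lower at p under 0.05 (3.32% and 4.34% of all probe sets). Mmp9, a gelatinase, had 9.86 ± 0.20 on d7 and 10.70 ± 0.22 on d3 (adjusted p = 0.223). Tnf, which encodes the cytokine TNF, had 8.60 ± 0.22 on d7 and 9.35 ± 0.16 on d3 (adjusted p = 0.249). Saa3 was the 1 higher gene, with 13.10 ± 0.31 on d7 and 12.31 ± 0.20 on d3 (adjusted p = 0.432 from limma). Cxcl2 and Ccl2 lay well above the background, with 13.70 and 13.81 on d7 and 13.49 and 14.00 on d3. Il6 and Cxcl1 lay at the background, with 3.82 and 4.22 on d7 and 4.00 and 4.08 on d3. Il6 is nevertheless 1 of the 6 lower genes counted here. In the interferon-gamma arm of IL-18 signalling, 7 of 14 genes lay above the background and none passed in limma, and before adjustment 1 was higher and 1 lower at p under 0.05, against the same shares of all probe sets. Cxcl10, an interferon-induced chemokine, had 6.54 ± 0.17 on d7 and 7.57 ± 0.34 on d3 (adjusted p = 0.222), and Ifngr1, a chain of the interferon-gamma receptor, had 14.21 ± 0.04 on d7 and 13.95 ± 0.20 on d3 (adjusted p = 0.647). Ifng itself was at the background, at 3.45 on d7 and 3.40 on d3.

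D7 replicate 6 stood apart for some members and for some of the IL-1-induced genes. It exceeded the mean of the other 3 d7 arrays by 1.37 for Il1b, 0.93 for Il1a and 0.83 for Il1r2 on the log2 scale, by 0.21 for Il1rn, and by -0.083 for Il18. It was the highest d7 array for 10 of the 14 IL-1-induced genes above the background, where 18.9% of all probe sets above the background had it highest. Among genes above the background, it was the highest d7 array for 5 of 7 of the interferon-gamma arm. The same held for only 2 of 14 processing genes and 4 of 15 signalling genes. Of all 7 arrays it was the highest for 6 of the 14 IL-1-induced genes and 1 of the 7 interferon-gamma arm genes. Over all probe sets above the background that share was 11.9%. Nos2, the inducible nitric oxide synthase, had 10.41 on d7 replicate 6 and from 8.09 to 9.02 on the other d7 arrays, against 7.73 to 8.21 on d3. Ptgs2, the inducible cyclooxygenase, had 10.60 there and from 8.79 to 9.43 on the other d7 arrays, against 8.33 to 8.94 on d3.

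Some neutrophil markers were also high on that array. S100a8 and S100a9, which encode calprotectin, had 12.06 and 10.95 on d7 replicate 6, at most 10.62 and 9.33 on the other d7 arrays, and at most 10.76 and 9.43 on d3. D7 replicate 6 was the highest d7 array for 10 of the 13 neutrophil markers above the background. The share over all probe sets above the background was 18.9%. It was the highest of all 7 arrays for 6 of the 13, where that share was 11.9%. Among the d7 arrays, Mmp9, Mrgpra2a and Stfa3 were not highest on replicate 6. Of the 13 markers, Mmp9 and Lcn2 are also on the list of IL-1-induced genes. The mean level of the 13 ran from 8.05 to 8.97 on d7 and from 8.67 to 9.14 on d3. That mean includes Retnlg, with 6.36 on d7 and 11.21 on d3, and the median log2 difference of the 13 markers was -0.11. Of the 22 markers, 9 were at the background on both days, among them Ly6g and Cd177 and the granule genes Mpo, Elane, Prtn3, Ctsg, Ltf, Camp and Ngp. Retnlg was the 1 marker that passed, lower on d7 (6.36 ± 0.40 on d7 and 11.21 ± 0.80 on d3, adjusted p = 0.0432 from limma), and it lost the call without any 1 array other than d3 replicate 1, with adjusted p from 0.0609 to 0.191 and a log2 difference between -5.27 and -4.48 in all 7 cases. Before adjustment 1 of the 22 markers was higher and 5 were lower at p under 0.05 (3.32% and 4.34% of all probe sets). The higher marker was Stfa3, with 6.71 ± 0.27 on d7 and 6.28 ± 0.17 on d3 (adjusted p = 0.647 from limma). Cd177, at the background, was among the 5 lower. By the mean alone, 9 of the 22 were higher on d7, 11 lower and 2 equal. Mmp8, a neutrophil collagenase, had 10.56 ± 0.29 on d7 and 11.66 ± 0.15 on d3 (adjusted p = 0.172), and Csf3r, the G-CSF receptor, had 12.35 ± 0.16 on d7 and 12.71 ± 0.20 on d3 (adjusted p = 0.647). The part of neutrophils in the levels of Il1b, Il1a and Il1r2 was not tested.

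**Figure D4:**
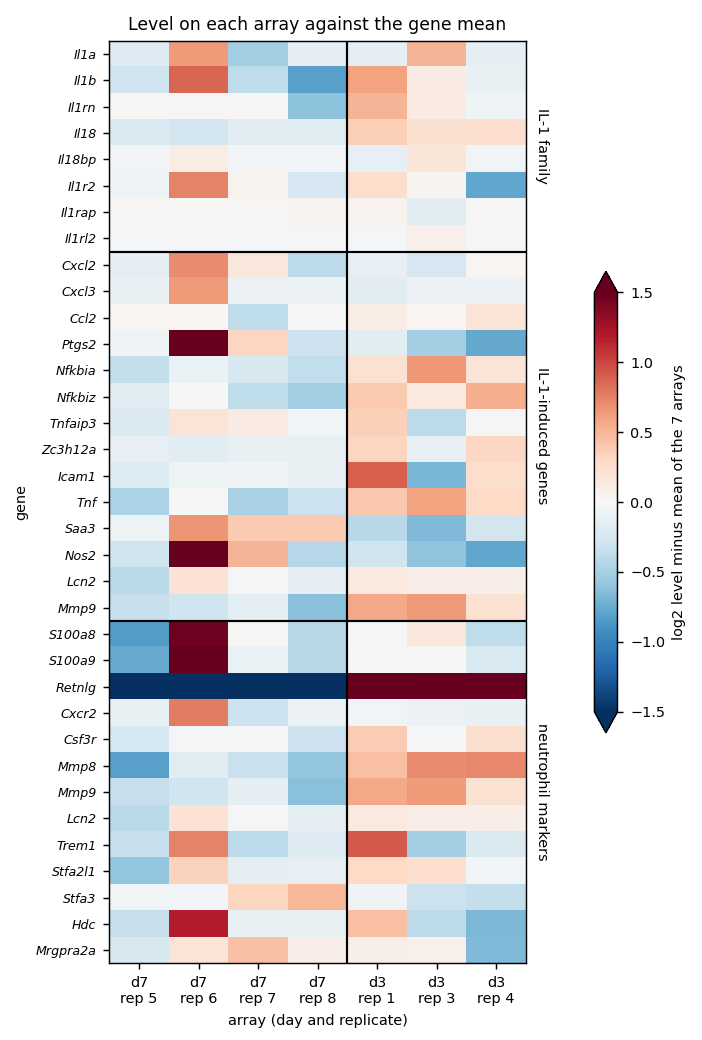
Log2 level on each array minus the mean of the gene over the 7 arrays (colour, from -1.5 to 1.5, with larger values at the end colours) for the IL-1 family, IL-1-induced genes and neutrophil markers above the array background, with d7 arrays left of d3 arrays. D7 replicate 6 is high for Il1b, Il1a, Il1r2, Nos2, Ptgs2, S100a8 and S100a9, while Il18 is low on all 4 d7 arrays.

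For the other cell types, markers were mostly at the background. This held for 12 of 15 mast cell, basophil and eosinophil markers, 10 of 12 markers of T, NK and innate lymphoid cells, 8 of 10 dendritic cell markers and 8 of 10 endothelial markers. None of these passed in limma. Before adjustment, at p under 0.05, 2 of the first list were lower and 3 of the second higher. In the third 0 reached it and in the fourth 1 was lower, where 3.32% of all probe sets were higher and 4.34% lower. Prg2 in the first list and Cd4 in the second are counted though they lay at the background. Siglecf, a receptor of eosinophils and some macrophages, had 5.42 on d7 and 6.16 on d3 (adjusted p = 0.315), and Hpgds, a prostaglandin D synthase, had 10.67 and 10.47. Rora, a nuclear receptor, has 3 probe sets, and the highest of them, an entry named as unmapped, was used. It had 6.58 on d7 and 5.58 on d3 (adjusted p = 0.0576), and Il7r, the IL-7 receptor, had 11.28 and 10.43 (adjusted p = 0.271). Kdr, a VEGF receptor, had 5.43 on d7 and 6.52 on d3 (adjusted p = 0.0567), and Pecam1, an adhesion molecule that leukocytes also carry, had 7.33 and 7.49. Ccr7 and Batf3, a chemokine receptor and a transcription factor of dendritic cells, had 6.17 and 5.81 on d7 and 6.27 and 5.93 on d3. Among the 12 macrophage and monocyte genes, 3 were higher and 5 lower at p under 0.05 before adjustment (3.32% and 4.34% of all probe sets). Mrc1, the mannose receptor, was the 1 that passed, at 16.68 ± 0.12 on d7 and 15.26 ± 0.15 on d3 (adjusted p = 0.0263 from limma), with an adjusted p of 0.0371 without d3 replicate 1 and from 0.0666 to 0.121 without any other array. Beside Ly6c2 and Ccr2, Plac8 had 11.55 ± 0.092 on d7 and 12.53 ± 0.26 on d3 (adjusted p = 0.115), and Fcgr1, an Fc receptor, had 16.59 ± 0.011 on d7 and 16.97 ± 0.088 on d3 (adjusted p = 0.0734).

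The genes nearest in pattern to each member were found by the root mean square difference of the 7 log2 values, each gene centred on its own mean. The search covered 8570 named genes above the background, without predicted genes, Riken clones, small RNAs or receptor segments. For Il1b they were Gbp2 and Gbp4, interferon-inducible guanylate-binding proteins, and G0s2, a lipase inhibitor, at distances of 0.14, 0.23 and 0.28. Gbp2 had 10.35 on d7 replicate 6 and 8.83 on d7 replicate 8, its highest and lowest d7 arrays as for Il1b. For Il1a they were Cct8l1, the chemokine gene Ccl3 and the myeloid receptor gene Tarm1, at 0.18, 0.22 and 0.24. For Il1r2 they were Thbs1, which encodes thrombospondin 1, the cystine transporter gene Slc7a11 and the caveolin gene Cav1, at 0.14, 0.19 and 0.21. Il1rn was nearest to Ifitm1, Hmgn2l6 and Rai14, at 0.11, 0.13 and 0.13.

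Il18 was nearest to Rap1gap2, a GTPase activator of Rap1, Rnf34, a ubiquitin ligase, and Rac2, a small GTPase of blood cells, at 0.05 each. Their log2 differences between the days were -0.50 for Rap1gap2 and -0.45 for Rnf34 and for Rac2, which follows from their choice for likeness to Il18. For Il18bp, Il1rap and Il1rl2 the nearest genes were Ankmy2, Litaf and Snx19, Farsb, Pdhx and Ankrd16, and Emsy, Polr2i and Poc1b. Their patterns rest on values shared by several arrays, so that for Il1rl2 the nearest gene differed by 1.4e-05.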

How the data were processed

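RNA of F4/80+ sorted CD11b+ sponge macrophages (4 d7 and 3 d3 arrays) was amplified, labelled and hybridized by the authors. The deposited values are log2 probe set levels; the submitters' processing notes name Affymetrix Expression Console, and the study's methods name Genespring GX and dChip. The normalization between arrays is not given in the sources used here, so ties and scaling cannot be traced. Precision is limited by how few arrays there are.

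From 72688 rows, 6732 array controls were left out. A single symbol was listed for 30638 probe sets, several for 2176 and none for 33142. The model, with day as its only term, was fitted with lmFit and eBayes (limma 3.58.1, R 4.3.3, two-sided, d7 minus d3), with Benjamini-Hochberg adjustment over 65956 probe sets and a threshold of 0.05. Pairs of genes were tested by exact permutation. The planning note held that 3 against 4 arrays cannot reach p under 0.05, but the smallest two-sided p is 0.0286 before adjustment. The limma script was tested on simulated data. Python 3.11.15, pandas 2.3.3, numpy 2.4.6 and matplotlib 3.10.9 drew the plots. Promoters come from RefSeq (GRCm38.p6).

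The members, 5 pathway lists and 8 marker lists were chosen with earlier results of these data known. Genes named are the members, up to 4 genes of each other list that passed (otherwise the 2 above the background with the smallest p) and the 3 nearest genes of each member above the background. Casp1, Il18r1, Il18rap, Il33, Il6, Cxcl1, Cxcl2, Ccl2, Saa3, Ifng, Nos2, Ptgs2, S100a8 and S100a9 were added after their values were seen. So were Adgre1, Itgam, Ly6c2, Ccr2, Plac8, Fcgr1, Mmp8, Csf3r, Stfa3, Mrgpra2a and the markers at the background. The labels call the samples biological replicates but do not say that they are separate animals, so p-values measure only the spread between samples. Alternatives were other scalings, tests, filters, weights and gene summaries, and each array left out in turn; 2 filters on ties were added after seeing the data.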

Additional observations from a re-analysis of the deposited data

Results flagged for a closer look

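Of 32 results examined over the 4 d7 arrays, 4 had an array far from the other 3, judged by Dixon's test at 95%. Chance flags about 1 in 20 groups, and groups of 3 were not tested, so the d3 arrays were not examined in this way. Il1rn had 12.88 on d7 replicate 8, and 13.51 on each of the other d7 arrays. Il18bp had 8.56 on d7 replicate 6, and 8.41 on each of the others. Il1rap had 5.55 on d7 replicate 8, and 5.51 on each of the others. In these 3 genes the other d7 arrays share 1 value, so that any difference of the fourth array meets the rule. Il1b minus Il1rn was -1.08 on d7 replicate 6, and from -2.33 to -2.14 on the others.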

How the results depend on the processing

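No paired analysis was possible because the d7 and d3 samples share no replicate number. The difference of Il18 was negative under all 23 alternatives, from -0.52 to -0.46. It lost the call at -0.49 with the methods' t-test after Benjamini-Hochberg adjustment (adjusted p = 0.1), with Welch's test (adjusted p = 0.336) and at an adjusted p under 0.01. Those 3 settings left 0 of the 9 members past the test, as did 6 of the 7 arrays left out, for a range of 0 to 1. At an unadjusted threshold the methods' t-test called 3652 probe sets and 17 listed pathway genes. After Benjamini-Hochberg adjustment it called 13 probe sets, and Welch's test called 0. Over all probe sets, 77 passed in the comparison as reported, 223 with each array centred on its median, 169 after quantile normalization, 208 at or above the median level, 374 above the array background, 6 at an adjusted p under 0.01, 824 with 7 different values, 163 without probe sets of 1 value, and from 1 to 212 with 1 array left out. D3 replicate 1 gave the 212 (69 higher and 143 lower) and d7 replicate 8 the 1. Listed pathway genes that passed numbered 0 as reported, 1 after quantile normalization, 1 above the array background, 7 with 7 different values, and from 0 to 1 with 1 array left out. Il18bp turned sign with median centring (0.011) and array weights (0.029). With 1 array left out, differences ran from -0.075 to 0.079 for Il18bp, from -0.36 to 0.094 for Il1a, from -0.035 to 0.49 for Il1r2 and from -0.0092 to 0.094 for Il1rap. The change ran from -0.32 to 0.096 for Il1b minus Il1rn and from -0.059 to 0.46 for Il1a minus Il1rn. Signal over background limits what Il1r1, Il1rap and Il1rl2 can show, since 70.0% of the whole array averaged no more than 5.39.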
